A study of Mus musculus with 6 samples.

Results

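The genes examined were the arachidonate lipoxygenases of the mouse and the enzymes that build leukotrienes from one of their products. The 10 genes were Alox5, Alox5ap, Alox12, Alox12b, Alox12e, Alox15, Alox8, Aloxe3, Lta4h and Ltc4s. They were chosen by name from 22180 genes with a feature (the array's probe set for a transcript) that the platform annotation assigned to exactly 1 symbol. All 10 were found, on 12 features, and the brightest feature by the mean of 6 arrays was used for each. The samples are given as hair follicle stem cells of mice at postnatal day 49. They were obtained by flow cytometric sorting of skin cells for CD34 and α6-integrin. There were 3 wild-type (WT) samples and 3 samples of mice carrying the K14-sPLA2-IIA transgene (TG), each on 1 Affymetrix array. K14 stands for keratin 14, whose promoter is active in the basal layer of the epidermis as well as in the follicle, that is, also outside the sorted cells. Strain, sex and whether a sample was 1 mouse or a pool are not stated in the labels, and p-values therefore cover only the spread among the 6 samples. Values by array are given below in the order of arrays 1, 2 and 3.

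Lipoxygenases insert oxygen into polyunsaturated fatty acids, among them the arachidonic acid that phospholipases A2 release from membranes. In the epidermis the products of Alox12b and Aloxe3 act in sequence on ceramides that carry linoleic acid, a step needed to build the water barrier, and loss of either gene causes ichthyosis. In leukocytes the enzyme encoded by Alox5, helped by the Alox5ap product, makes leukotriene A4, which Lta4h converts to leukotriene B4 and Ltc4s to leukotriene C4. These lipids attract or activate leukocytes through receptors on their surface.

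None of the 10 genes differed between TG and WT beyond the spread of the arrays. In limma, with Benjamini-Hochberg adjustment over all genes, 0 of 10 passed an adjusted p of 0.05 (lowest adjusted p = 0.99996), and 0 of 10 had an unadjusted p under 0.05. Over all 22180 genes the same rules called 1 gene, or 0.00451%, and 2.77%. The values of WT and TG overlapped for all 10 genes, where 7.2% of all genes had no overlap. The difference, TG minus WT on the log2 scale, was below 0 for 8 of 10 genes, against 52.1% of all genes. That count was 7 with quantile normalization and 6 with the arrays shifted to one median. In size, 4 of 10 genes (Alox5, Alox12, Alox12b and Aloxe3) were at least 1.5-fold lower in TG, against 1.22% of all genes, and 0 were at least 1.5-fold higher, against 1.51%. The count of 4 was 0 when TG array 3 was left out, 1 when WT array 2 was and 6 when WT array 3 was. The median difference was -0.34 over the 10 genes and -0.0075 over all genes. The gene called was Pla2g2a, which encodes the transgene's enzyme, at 6.38 ± 0.27 (SE). Its limma call ended when TG array 1 was left out (adjusted p = 0.065) and when both arrays numbered 3 were (adjusted p = 0.173).

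The arrays of one genotype were not alike, and this touches every value below. On the first principal component, which held 64.6% of the variance, WT array 3 and TG array 3 scored 50.2 and 53.3. WT arrays 1 and 2 and TG array 2 scored between -34.3 and -32.7, and TG array 1 scored -2.78. The mean log2 value of 10 bulge stem cell markers ran the same way, at 11.12 and 10.90 on the arrays numbered 3, 10.78 on TG array 1 and 9.75 to 9.79 on the rest. Cd34, the marker used for the sort, read 9.78, 9.89 and 13.07 in WT and 11.57, 9.65 and 12.42 in TG. Markers of suprabasal keratinocytes, the differentiated layers above the basal cells, ran opposite to the bulge marker mean. Their mean over 12 genes was 11.85, 11.94 and 9.95 in WT and 10.81, 11.79 and 9.55 in TG. The part of these shifts in the results was not tested, and in bulk samples fewer cells of a type and less RNA per cell cannot be told apart.

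The barrier pair is described first. Aloxe3, which encodes a hydroperoxide isomerase of the epidermis, read 8.83, 9.003 and 8.13 in WT and 7.43, 8.83 and 7.08 in TG. TG arrays 1 and 3 lay below all WT arrays, and TG array 2 lay with WT arrays 1 and 2. The difference was -0.87 ± 0.48 (SE), or 1.83-fold lower in TG, with a 95% interval of -2.01 to 0.26. Alox12b, which encodes the R-type epidermal lipoxygenase that feeds it, read 9.41, 9.65 and 8.22 in WT and 7.95, 9.66 and 7.22 in TG. Here too TG arrays 1 and 3 were below the whole WT range, while TG array 2 had the highest value of all. Its difference was -0.81 ± 0.66, with an interval of -2.39 to 0.77. After each gene was centred on its own mean, the root mean square difference between the pair over the 6 arrays was 0.26, against a root mean square of 0.94 for Alox12b alone and 0.74 for Aloxe3 alone. This closeness was not particular to the pair, since Alox5 lay at 0.30 from Aloxe3 and 0.31 from Alox12b, and the less variable genes Alox15 and Lta4h at 0.14 from each other.

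**Figure D1:**
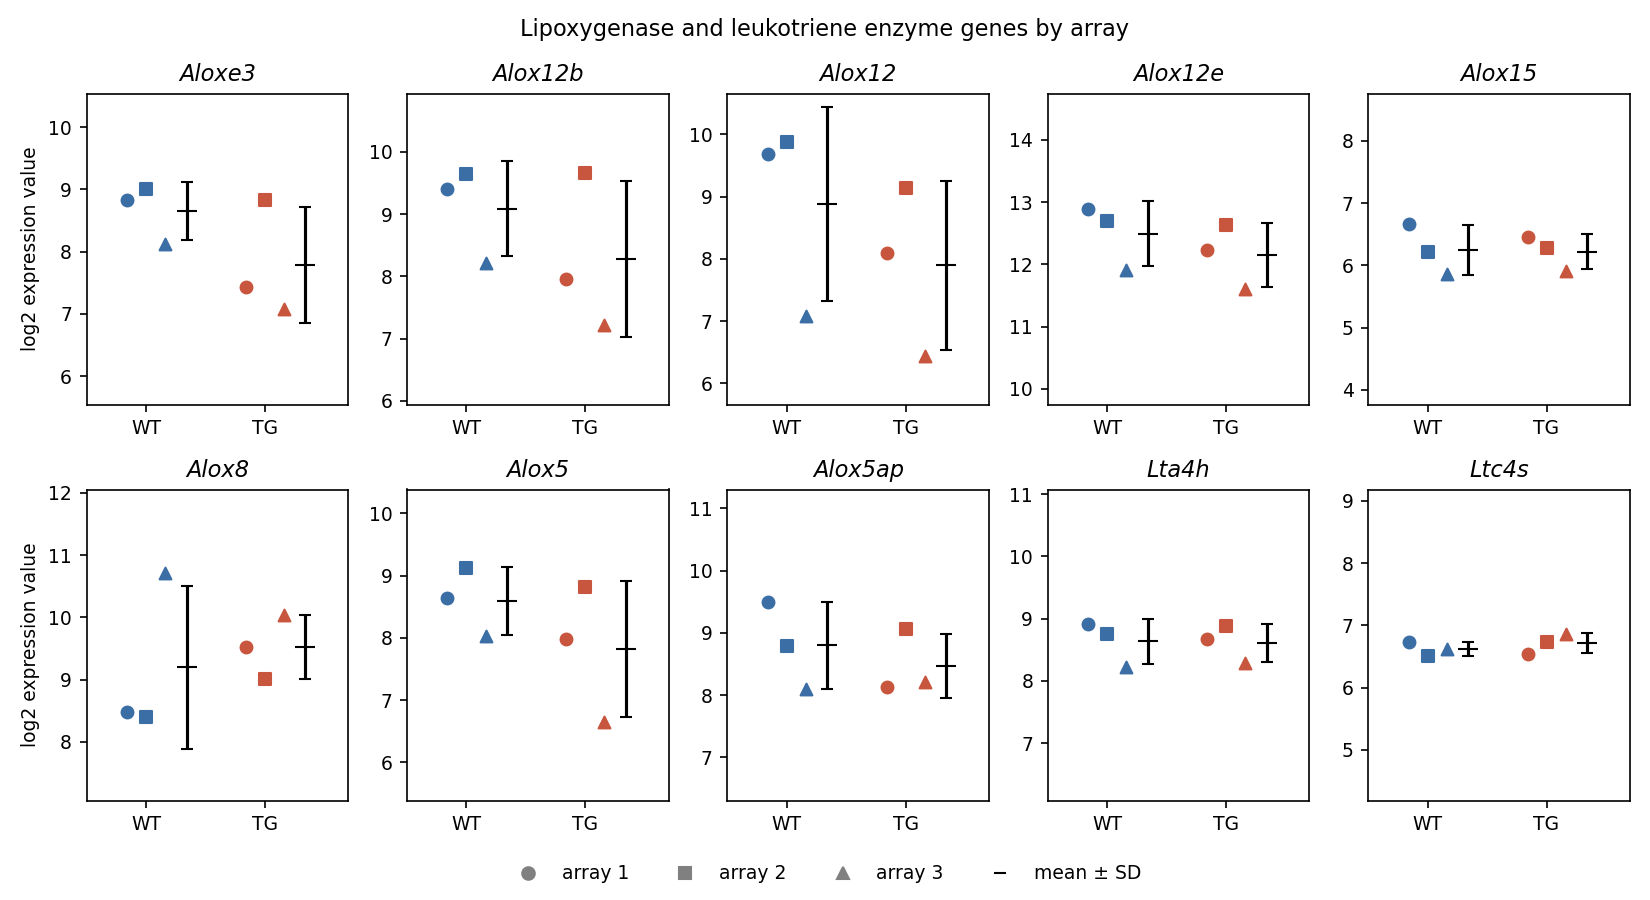
Log2 expression value of each of the 10 genes on every array, WT in blue and TG in red, with the array number as the marker shape and the mean ± SD (n = 3) in black. Every panel spans the same height of log2 units. The arrays numbered 3 were the lowest of their genotype for 7 genes and the highest for Alox8.

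Among the other skin lipoxygenases, Alox12 spread the most. It encodes the platelet-type enzyme, which keratinocytes also make. It read 9.68, 9.88 and 7.08 in WT and 8.10, 9.14 and 6.44 in TG, so that 1 array of each genotype was more than 1 log2 unit below the others. The difference of -0.98 ± 0.93 (SE) was about the size of its error, and the interval ran from -3.20 to 1.24. Alox12e, the epidermal lipoxygenase gene found next to Alox12 in the mouse, read 12.88, 12.70 and 11.90 in WT and 12.23, 12.63 and 11.61 in TG, a difference of -0.34 ± 0.34. Alox15, the leukocyte-type gene, read 6.66, 6.21 and 5.87 in WT and 6.46, 6.28 and 5.91 in TG, with almost the same mean in both. Its difference was -0.03 ± 0.24, with an interval of -0.61 to 0.55. Alox15 was the 1 gene of the 10 whose mean lay below that of the median gene on the array, where a difference can be understated.

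Alox8 had the opposite array pattern. It encodes the mouse 8S-lipoxygenase, the counterpart of human ALOX15B, and is known as a gene that phorbol esters induce in mouse skin. It read 8.49, 8.40 and 10.71 in WT and 9.52, 9.01 and 10.03 in TG. WT array 3 was the highest of all and WT arrays 1 and 2 the lowest, with every TG array between them. The difference was 0.32 ± 0.64 (SE) and turned to -0.03 when WT array 1 was left out and to -0.08 when WT array 2 was. Leaving out WT array 3 gave 1.08. Alox8 was the 1 gene of the 10 that was highest on array 3 in both genotypes, which 23.5% of all genes were. By contrast 7 of the 10, namely Alox5, Alox12, Alox12b, Alox12e, Alox15, Aloxe3 and Lta4h, were lowest there in both, against 34.5% of all genes. Array 3 lay at least 1 log2 unit below the mean of the other arrays in both genotypes for Alox12 and Alox12b, 2 of 10, against 2.62% of all genes.

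Alox8 lies beside the barrier pair in the genome. In the RefSeq gene table of assembly GRCm38.p6, 7 of the 10 genes are on chromosome 11. Aloxe3, Alox12b and Alox8 follow each other there with 0 protein-coding genes between them, as do Alox12, Alox12e and Alox15, and 64 protein-coding genes separate the groups. The promoters of Alox12b and Alox8 are shown because these neighbours ran in opposite directions across the arrays, and that of Alox12 because it had the widest range. Each runs from 250 bases before to 50 bases after the RefSeq start, written 5′ to 3′ on the gene's strand. Alox12b is at chr11:69156822-69157121 on the plus strand, Alox8 at chr11:69197794-69198093 on the minus strand and Alox12 at chr11:70255321-70255620 on the minus strand. Capitals mark the GC box, GGGCGG or its reverse complement.
Alox12b: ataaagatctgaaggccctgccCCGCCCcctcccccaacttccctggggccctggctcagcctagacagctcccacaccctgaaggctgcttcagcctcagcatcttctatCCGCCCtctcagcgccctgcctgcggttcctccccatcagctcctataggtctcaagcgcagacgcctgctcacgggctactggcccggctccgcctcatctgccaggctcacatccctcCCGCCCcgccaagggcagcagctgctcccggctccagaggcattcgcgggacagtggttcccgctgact
Alox8: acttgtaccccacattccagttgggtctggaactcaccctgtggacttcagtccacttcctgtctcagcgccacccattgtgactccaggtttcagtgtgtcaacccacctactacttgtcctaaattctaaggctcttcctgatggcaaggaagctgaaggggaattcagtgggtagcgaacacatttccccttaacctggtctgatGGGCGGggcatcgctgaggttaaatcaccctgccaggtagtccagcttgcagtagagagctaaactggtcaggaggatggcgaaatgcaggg
Alox12: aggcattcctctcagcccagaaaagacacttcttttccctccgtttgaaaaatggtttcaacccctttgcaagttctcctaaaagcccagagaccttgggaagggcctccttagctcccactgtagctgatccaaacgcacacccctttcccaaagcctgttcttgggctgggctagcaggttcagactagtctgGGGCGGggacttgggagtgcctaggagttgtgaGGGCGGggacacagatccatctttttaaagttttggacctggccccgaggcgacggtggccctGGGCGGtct
The GC box occurs 3 times in the Alox12b promoter, 3 times in that of Alox12 and 1 time in that of Alox8. Among all 32851 RefSeq promoters of this length 35.7% hold it on either strand. The AP-1 motif TGANTCA (in 7.81% of all promoters), the C/EBP motif TTGCNNAA (10.8%) and the TATA box TATAAA (13.6%) were not found in these windows on either strand. Of the 7 genes with a promoter in the table, Alox5, Alox12, Alox12b, Alox12e and Alox8 held the GC box, 5 of 7, and 0 held any of the other motifs. These matches are a description of letters. The GC content was 66% for Alox12b, 55.3% for Alox12 and 52.7% for Alox8, and the median over all promoters was 52.7%.

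**Figure D2:**
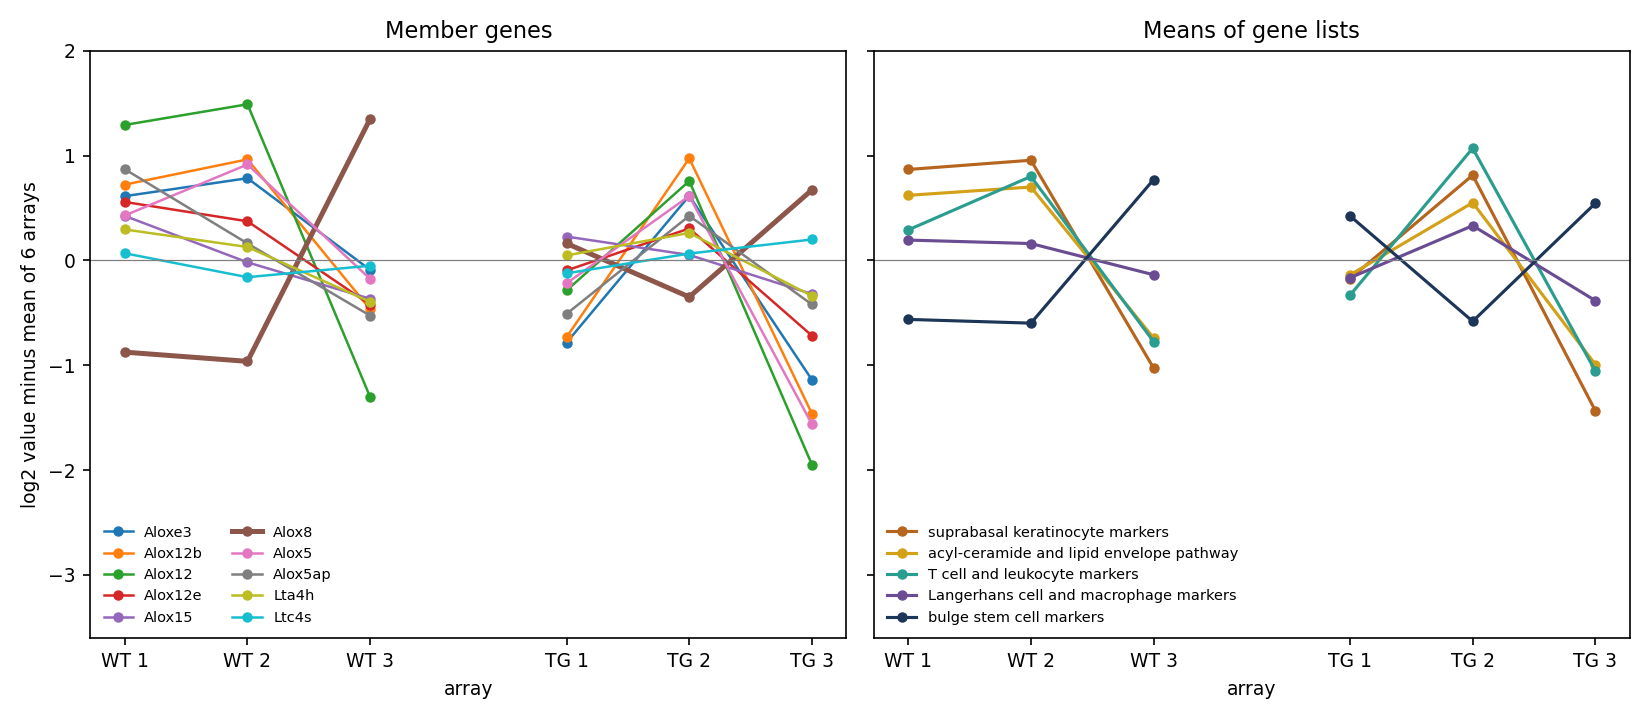
Left, log2 value of each of the 10 genes minus its mean of 6 arrays, by array; right, the same for the means of 5 gene lists. Lines join arrays of one genotype as a guide to the eye and carry no order. Alox8 (thick line) and the mean of the bulge markers are high on the arrays numbered 3, while Alox12 and the mean of the suprabasal markers are low there.

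In the leukotriene branch, Alox5 read 8.64, 9.12 and 8.03 in WT and 7.99, 8.82 and 6.64 in TG. TG arrays 1 and 3 lay below all WT arrays and TG array 2 inside their range. The difference was -0.78 ± 0.56 (SE), with an interval of -2.11 to 0.55. A second Alox5 feature gave 0.09, so the features disagreed in sign, and their average gave -0.34. The second feature had a mean of 6.16, below the median gene level of 6.55, where a difference can be understated. Alox5ap, which encodes the protein that presents arachidonic acid to the enzyme, read 9.50, 8.79 and 8.10 in WT and 8.12, 9.06 and 8.21 in TG. All 3 TG arrays lay within the WT range. The difference of -0.34 ± 0.40 turned to 0.014 without WT array 1. A second feature, with a mean of 5.98 and so also below the median gene level, gave -0.12.

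The genes of the enzymes that act on leukotriene A4 had the narrowest ranges over the arrays. Lta4h read 8.92, 8.75 and 8.23 in WT and 8.67, 8.89 and 8.29 in TG, with a difference of -0.02 ± 0.24 (SE) and an interval of -0.59 to 0.55. Ltc4s read 6.73, 6.50 and 6.61 in WT and 6.54, 6.73 and 6.86 in TG, and its 6 arrays spanned 0.36 log2 units. The difference was 0.09 ± 0.14, with an interval of -0.24 to 0.43, which leaves room for changes of either sign. The Ltc4s mean of 6.66 lay just above the median gene level of 6.55, and a difference at low levels can be understated. Besides Lta4h and Ltc4s, only Alox15 had a range under 1 log2 unit. The remaining 7 genes spanned at least 1 unit over the arrays, against 18.6% of all genes.

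The arrays numbered 2 and 3 deviated together from their genotype means (correlations of 0.67 and 0.74), and those numbered 1 only weakly (0.20). WT array 1 went more closely with TG array 2 (0.50). The numbers were also used as pairs. No label ties them to a litter or day, and this choice came from the same values, so the paired errors and p-values rest on it. Paired in this way, the error of the Alox12 difference was 0.21 (SE), against 0.93 unpaired. Alox5, Alox12, Alox12e and Aloxe3 were lower in TG in all 3 pairs, 4 of 10 genes against 16.5% of all genes, and 0 were higher in all 3, against 14.6%. For Aloxe3 the pairs gave -1.40, -0.17 and -1.05, and for Alox12 -1.58, -0.73 and -0.64. For Alox5 they gave -0.65, -0.30 and -1.39. Alox12b gave -1.46, 0.0094 and -0.997, so that the pair numbered 2 had almost the same value in both genotypes. With the replicate number as a block in limma, 4 of 10 genes (Alox5, Alox12, Alox12b and Aloxe3) had an unadjusted p under 0.05, all lower in TG, where 3.86% of all genes did so. None of the 10 passed the adjusted threshold in that fit. The adjusted p was 0.538 for Alox5, Alox12 and Aloxe3 and 0.557 for Alox12b. The suprabasal marker mean was likewise lower in TG in every pair, as the values above give.

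**Figure D3:**
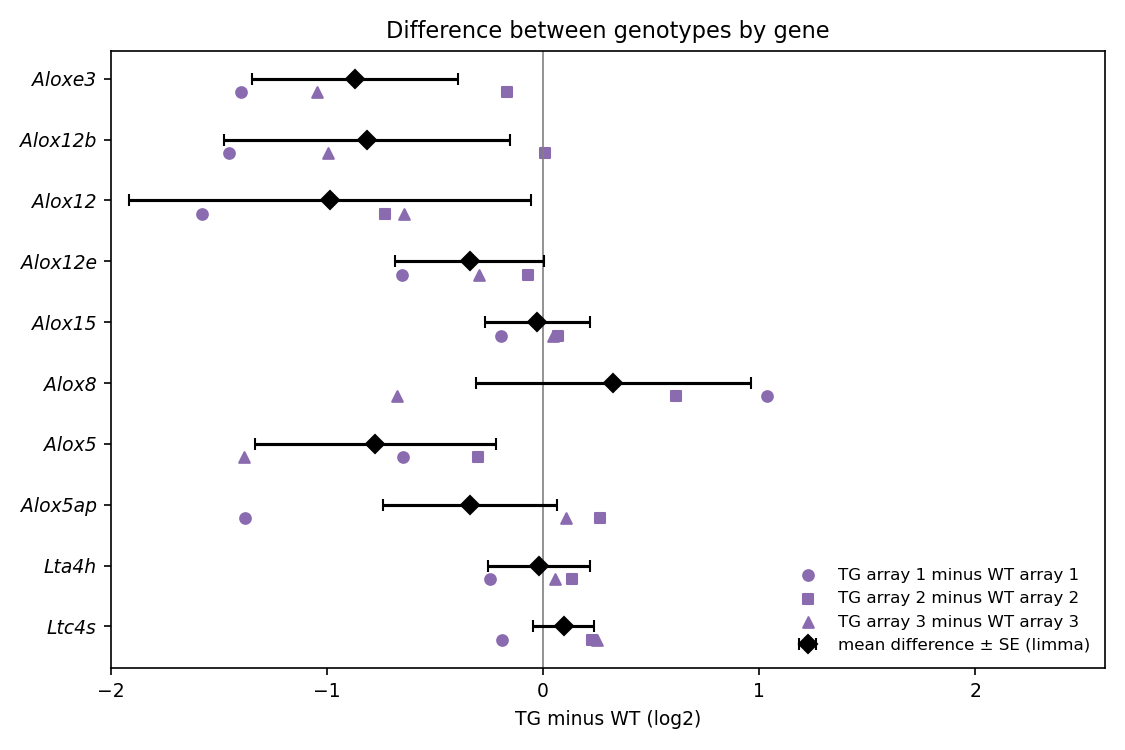
TG minus WT difference of each of the 10 genes on the log2 scale. Diamonds with bars are the mean difference ± SE from limma without pairing, and purple markers are the differences of the arrays with the same number. For Aloxe3, Alox12, Alox12e and Alox5 all 3 pairs lie below 0, and Alox8 has pairs on both sides.

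The exact two-sided permutation test over the 6 arrays gave p = 0.3 for Aloxe3, the lowest of the 10 genes, and p = 1 for Alox15. The smallest p that 3 against 3 arrays allow is 0.1. Leaving out TG array 3 took Alox12 to -0.26, Alox12b to -0.29, Alox5 to -0.19 and Aloxe3 to -0.52. Leaving out TG array 2 took them to -1.61, -1.50, -1.28 and -1.40.

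The genes whose values ran most like each of the 7 variable genes were found over the 6 arrays by the smallest root mean square difference of centred log2 values. For Alox12 these were Ddr2 (0.13), Sema3d (0.15), Cyp4f39 (0.15) and Wnt3 (0.16). Cyp4f39 encodes an omega-hydroxylase of the acyl-ceramide pathway in which Alox12b and Aloxe3 also act. For Alox12b they were Fut2 (0.13), Mpzl3 (0.17), Tspan8 (0.17) and Cdsn (0.18), the last encoding corneodesmosin of the cornified layer. For Alox12e they were Prkab2 (0.038), Sbsn (0.060), Hectd4 (0.062) and Npc1 (0.069), where Sbsn encodes suprabasin. For Aloxe3 they were Tnxb (0.14), Ackr2 (0.15), Slc25a43 (0.19) and Mctp2 (0.20). For Alox5 they were Slc6a4 (0.096), Exph5 (0.20), Rab3d (0.20) and Marveld2 (0.21), and for Alox5ap Rec8 (0.10), Srms (0.13), Ereg (0.14) and Arhgef26 (0.14). Alox8 was nearest to Dixdc1 (0.16), Sh3rf1 (0.20), Tns1 (0.20) and Map7d3 (0.21). The distances rest on 6 arrays and 17227 candidate genes, and are given as a description with no test.

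The other genes of the pathways were counted from 4 lists, of which 47 genes were measured. In limma 0 of 47 passed the adjusted threshold and 0 of 47 had an unadjusted p under 0.05. With the replicate block 9 of 47 had an unadjusted p under 0.05, against 8.45% of all genes, and 0 passed after adjustment. The acyl-ceramide and lipid envelope list holds the genes that make and attach the lipids on which Alox12b and Aloxe3 act. Of its 17 measured genes 15 were below 0, with a median difference of -0.29. With the block 7 of the 17 had an unadjusted p under 0.05 as lower, against 3.86% of all genes, and 0 as higher, against 4.59%. In the unpaired fit the smallest unadjusted p in the list belonged to Smpd1, encoding acid sphingomyelinase, at -0.29 ± 0.17 (SE), Sdr9c7, encoding a dehydrogenase that works after Aloxe3 in the same sequence, at -0.93 ± 0.69, and Sptlc3, encoding a subunit of serine palmitoyltransferase, at -0.75 ± 0.61. Sdr9c7 read 8.20, 8.92 and 7.02 in WT and 6.52, 8.49 and 6.33 in TG. As for Alox12b and Aloxe3, TG arrays 1 and 3 lay below all WT arrays. The list's median turned to 0.028 without TG array 3 and was -0.88 without WT array 3.

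The lists around leukotrienes centred near 0 when all measured genes were counted, many of them at low levels, where a difference can be understated. Of 8 measured receptors of leukotrienes and related lipids, 4 were above 0, with a median of -0.0010. Only 1 of the 8 lay above the median gene level, and it differed by -0.37. The acyl-ceramide list kept 16 of its 17 genes above that level, with a median of -0.38. Ltb4r1, the high-affinity leukotriene B4 receptor gene, read 10.01, 9.94 and 9.38 in WT and 9.44, 9.93 and 8.84 in TG, a difference of -0.37 ± 0.31 (SE). Cysltr1, a receptor gene for cysteinyl leukotrienes, differed by -0.34 ± 0.53, and Fpr2, the gene of a formyl peptide receptor that also binds lipoxin, by 0.36 ± 0.24 at a low level (3.92 in WT). Of 12 genes for the conversion, export and breakdown of leukotrienes 5 were above 0, with a median of -0.0068. The 7 of them above the median gene level had a median of -0.13. Mgst2, whose product can also make leukotriene C4, differed by 0.47 ± 0.25, and its values of 8.28, 7.71 and 7.65 in WT and 8.66, 8.45 and 7.95 in TG overlapped. Mgst1, of the same family, differed by 0.25 ± 0.26 and Ggt5, which trims leukotriene C4 to leukotriene D4, by 0.33 ± 0.19. Among 10 genes for lipoxygenase partners and control of lipid peroxides 6 were above 0. Cotl1, whose product binds the Alox5 enzyme, differed by 0.26 ± 0.20, Gpx4, which reduces lipid hydroperoxides, by 0.22 ± 0.18 and Acsl4, which loads arachidonic acid onto coenzyme A, by 0.31 ± 0.34, all in the unpaired fit.

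**Figure D4:**
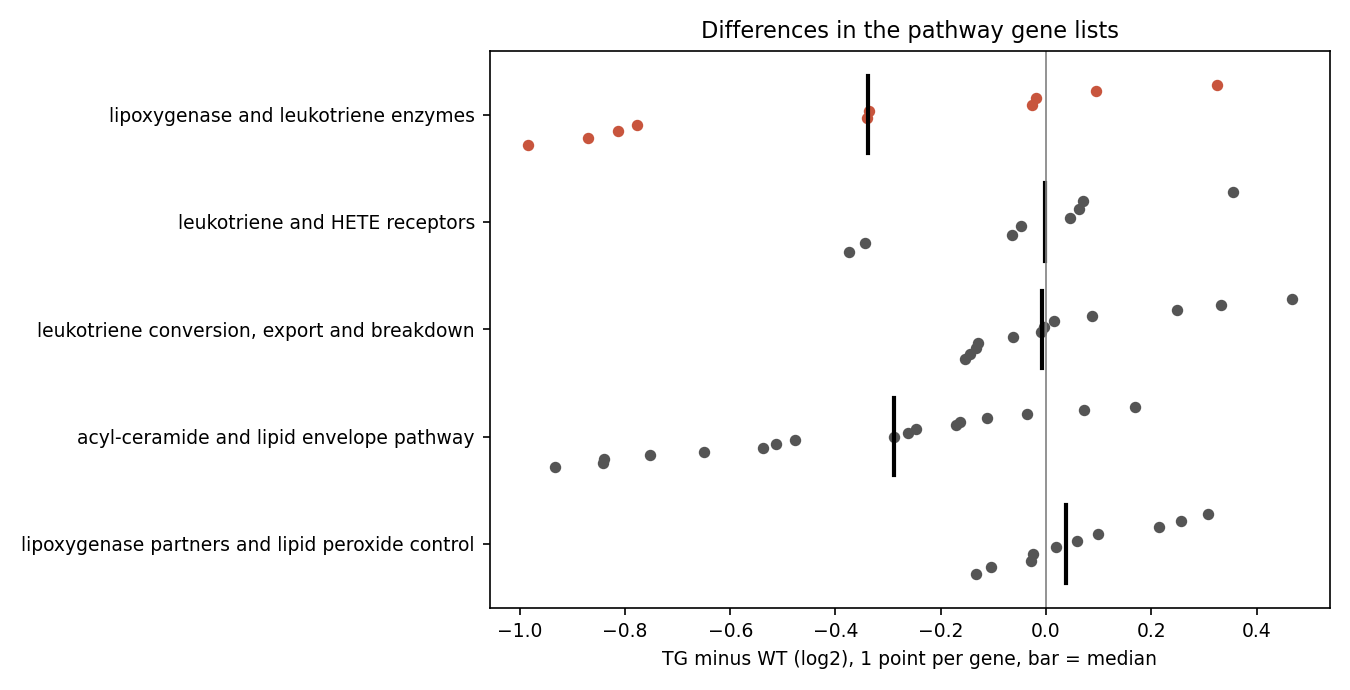
TG minus WT difference on the log2 scale for each measured gene of 5 lists, with 1 point per gene and a bar at the list's median. The lipoxygenase and leukotriene enzymes and the acyl-ceramide list have medians of -0.34 and -0.29, while the other 3 lists have medians between -0.0068 and 0.04. Only 1 of the 8 receptors lies above the median gene level.

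Markers of other skin and blood cells were read on the same arrays. Levels were summed over 7 measured T cell and leukocyte markers of 10 listed. The log2 of the sum ran from 10.54 to 12.41 in WT and from 10.20 to 12.72 in TG, lowest on array 3 in both genotypes. The Langerhans cell and macrophage, neutrophil, suprabasal and sebocyte sums were lowest there too. So were 7 of the 10 genes, Alox5 among them, and 34.5% of all genes. For Langerhans cell and macrophage markers (11 of 12 measured) the sum ran from 11.38 to 11.83 and from 11.05 to 12.00. For mast cell markers (9 of 9) the sums lay at 8.13 to 8.38 in WT and 7.92 to 8.55 in TG, and for platelet markers (6 of 7) at 8.90 to 9.06 and 8.74 to 9.01. Neutrophil markers (9 of 9) lay at 8.18 to 8.46 and 8.40 to 8.43. For suprabasal markers (12 of 12) the sums ran from 14.69 to 16.11 and from 14.38 to 16.03. Sebocyte markers (8 of 9) ran from 12.33 to 13.74 and from 12.70 to 13.80, and melanocyte markers (6 of 6) from 9.05 to 10.71 and from 9.58 to 10.11. Fibroblast markers (7 of 7) ran from 9.16 to 9.54 and from 9.32 to 9.84. The sums of WT and TG overlapped in each of these lists. The mean log2 value of the fibroblast list narrowly did not overlap, at 5.97 to 6.16 in WT and 6.17 to 6.49 in TG. Of its 7 genes, 1 had no overlap by itself, against 7.2% of all genes. With the block 3 of the 7 genes had an unadjusted p under 0.05 as higher, against 4.59% of all genes, and 0 passed after adjustment. No marker can be called absent because no detection value was used. Their part in the values of the 10 genes was not tested.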

How the data were processed

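RNA of sorted cells, given as hair follicle stem cells, was hybridised to 6 Affymetrix Mouse Gene 2.0 ST arrays, 3 per genotype. Groups and replicate numbers were taken from the sample titles. The deposited values are on a log2 scale, 1 per array and feature, and the base was read from their range. Transcriptome Analysis Console and Affymetrix Expression Console (1.4.1) are listed without a role in the submitters' processing notes. How probes were summarised, how arrays were scaled and on which genome build is not given in the sources used here. With another log base the fold changes would be different, and the directions and p-values would not. The medians of the 6 arrays lay between 5.90 and 5.99, and the number of arrays limits the precision.

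Of 41345 features, 23521 had exactly 1 symbol, 1814 several and 16010 none; only the first were used, which gave 22180 genes. TG was compared with WT by two-sided tests in limma 3.58.1 (R 4.3.3), using lmFit and then eBayes with genotype alone in the model. The p-values were adjusted over all genes by Benjamini-Hochberg. The procedure was run on simulated data with independent noise on each array, so without the array shifts seen here. It called 25 of 50 genes changed by 1 log2 unit, 47 of 50 changed by 2, and made 15 false calls. No filter on low values was applied to the deposited data. Deviations from the genotype means correlated over genes at 0.20, 0.67 and 0.74 for the arrays numbered 1, 2 and 3, each over the limit of 0.1, so the number served as a block in an alternative fit. No label ties the numbers to a litter or day. The same check gave 0.50 for WT array 1 and TG array 2. Other alternatives were the mean of a gene's features, quantile normalization, a shift to one median, genes above the median level, an intensity trend, array weights, each array left out and both arrays numbered 3 left out.

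Named genes were all 10 members, Pla2g2a, the 3 genes with the smallest p of each pathway list and the 4 nearest genes of each member with a range of at least 1. Cd34 and Itga6, the marker genes of the sort, and Krt15 were named after their values were seen. The members and lists were chosen with earlier results of these data known, so they are no independent support. Promoter sequences are from RefSeq (GRCm38.p6), where 7 of the 10 genes matched by symbol.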

Additional observations from a re-analysis of the deposited data

How the results depend on the processing

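In 14 alternatives 0 of the 10 genes and 0 of the 47 pathway genes passed the adjusted threshold, except that only 9 and 34 of them were tested among genes above the median level. The lowest adjusted p of a member was 0.279, for Aloxe3 with array weights, where 5 members had an unadjusted p under 0.05, as did 14.1% of all genes. Without TG array 2 it was 3 members (3.91% of all genes), and without WT array 3 it was 2 (4.79%). It was 0 when any other single array was left out. Without both arrays numbered 3 it was 2 members (5.92%), Alox8 at 0.83 and Alox12 at -1.16. The replicate block changed no adjusted call. The count of all genes past the threshold ranged from 0 to 1 when each array was left out, and was 0 without both arrays numbered 3. The median difference of the members ranged from -0.66 to -0.089 when each array was left out. Alox5, Alox12, Alox12b, Alox12e and Aloxe3 stayed below 0 in every alternative run. Alox15 turned to 0.0046 with quantile normalization, 0.0062 with the arrays shifted to one median and 0.047 with array weights, and ranged from -0.22 to 0.18 with an array left out. Lta4h turned to 0.014 with the shift and ranged from -0.22 to 0.15, and Ltc4s turned to -0.0045 with array weights. With an array left out, Alox5ap ranged from -0.68 to 0.014, Alox8 from -0.076 to 1.08, Cysltr1 from -0.77 to 0.14 and Acsl4 from -0.038 to 0.60. The cause of these turns was not tested. The intervals show what 3 arrays per genotype can resolve.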
